A study of Caenorhabditis elegans with 2 samples.

Results

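The spe (defective spermatogenesis) and msp (major sperm protein) genes of Caenorhabditis elegans were examined for binding of OEF-1, a nuclear protein known from germ cells. Members were all protein-coding genes of the WBcel235 annotation whose symbol begins with spe- or msp-. There were 60 of them among 19973 coding genes on the nuclear chromosomes, 29 spe and 31 msp genes. The values are positions of chromatin immunoprecipitation sequencing (ChIP-seq) peaks relative to the annotated 5' end of each gene.

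The animals were whole hermaphrodites of strain OP383 at the L4 larval stage, 52 h after synchronization as starved first-stage larvae. Their genotype was unc-119(tm4063) III with the insertion wgIs383, which adds an oef-1 (F49E8.2) gene ending in a GFP-FLAG tag, and DNA was recovered with an antibody against GFP. There was 1 group of 2 samples, biological replicates 3 and 4, which share 1 control file, and no untagged strain was analysed here. All results rest on the tagged extra copy in this 1 inserted line. Whole animals mix the germline with body tissues, and peak lists hold no RNA levels from which the tissue could be checked against its markers.

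In hermaphrodites, germ cells form sperm during the L4 stage and switch to oocytes as the animal becomes adult. The msp genes encode small, nearly identical proteins that assemble into the filaments on which the crawling sperm moves, and that also signal to oocytes. The spe genes are grouped by mutant phenotype rather than by sequence, and act in spermatid formation, sperm activation and fertilization. Transcription of sperm genes is known to involve SPE-44, a DNA-binding protein, and ELT-1, a GATA factor linked to msp promoters.

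The authors' optimal list, kept for peaks that rank alike between replicates, held 1339 peaks. The pooled and replicate 3 candidate lists held 30000 rows each and the replicate 4 list 23600, with weak peaks and background included by design. Strength was read from the signal the authors deposited, on a scale they do not name, and a peak's rank is the place of that signal within its own list. The optimal peaks were those with the highest pooled signal and ended at a signal of 74.0. No read numbers accompany the lists, and the depth under a peak cannot be stated. Bound genes are those with an optimal summit, the highest point of a peak, at most 500 bp upstream or downstream of the 5' end, which in this species is often a trans-splice site downstream of the transcription start.

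The share of sperm genes that were bound was not set apart from that of all coding genes. Of the 60 members, 3 (5.0%, exact Clopper-Pearson 95% interval 1.04 to 13.9) had an optimal summit within 500 bp of the 5' end, against 3.87% of all coding genes. All 3 were spe genes, spe-48 and spe-39 among them. They made 3 of 29 spe genes (10.3%, interval 2.19 to 27.4) against 0 of 31 msp genes (interval 0 to 11.2). With a count of 0 taken as at most 3 counts, the msp share could be up to 9.68%. The intervals, which cover counting error only, include the share of all coding genes for both families, so neither share is set apart from it at this number of genes. Within 200 bp, 2 spe and 0 msp genes had an optimal summit, against 1.89% of all coding genes. Within 1000 bp the counts were 4 spe genes, with spe-15 added, and 2 msp genes, msp-57 and msp-65, against 5.28% of all coding genes. No statistical test was made, because genes are not replicates of a condition and these lists have 1 group.

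**Figure D1:**
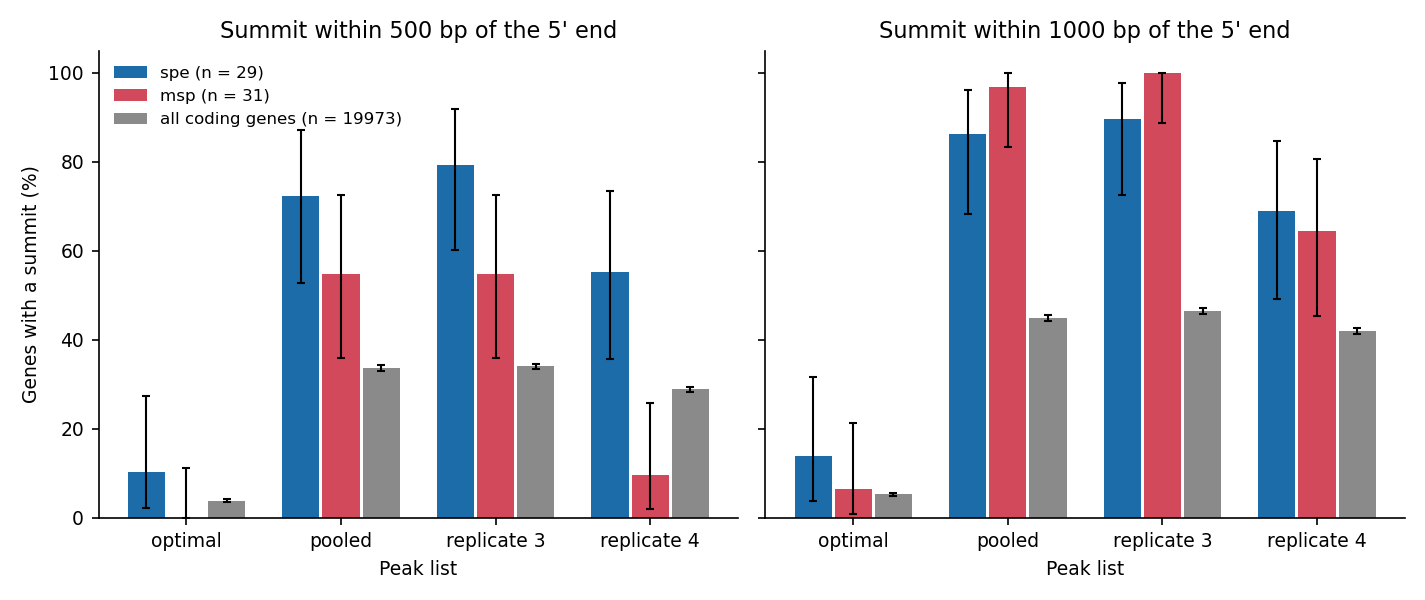
Share of genes with a peak summit within 500 bp (left) and 1000 bp (right) of the annotated 5' end in the optimal, pooled and replicate lists, for 29 spe genes, 31 msp genes and all 19973 coding genes; bars are percentages from 0 and error bars exact Clopper-Pearson 95% intervals. Within 500 bp the msp share was 0% in the optimal list, 54.8% in replicate 3 and 9.68% in replicate 4, and within 1000 bp both families lay above all coding genes in the 3 candidate lists.

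A clear site was at spe-48 (WBGene00021771), a gene for which no role is given here, on the minus strand at chrI:1950594-1958527 of ce11. Its summit at 1958585 was 58 bp upstream of the 5' end with a signal of 114.0, pooled rank 572. Replicate 3 gave 79.4 (rank 620) and replicate 4 gave 30.7 (rank 740), with summits 34 bp and 1 bp from the pooled one, so both replicates placed it among their 1339 strongest peaks. The gene Y51F10.11 starts on the other strand only 122 bp from this summit and has no optimal summit nearer to it. The peak therefore sits between a divergent pair of 5' ends, and position alone cannot assign it to spe-48.

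Another bound gene, spe-39 (WBGene00004975), encodes a protein of vesicle traffic needed to build the membranous organelles of spermatids and also used in other tissues. It lies on the plus strand at chrV:6785451-6787864. The optimal summit at 6785110 was 341 bp upstream, with a signal of 79.6 and pooled rank 1155, near the end of the optimal list. Replicate 3 had 56.7 (rank 1250) at the same base and replicate 4 had 25.7 (rank 1131) 102 bp away. The 5' end of spn-4, a maternal RNA-binding protein gene on the opposite strand, was nearer at 207 bp. When each summit counted only for the nearest coding 5' end, spe-39 was no longer bound. In replicate 4 the summit was 239 bp from spe-39, which was then the nearest 5' end, so ownership of this peak changed with the list. A weaker candidate closer to spe-39, at -138 bp with a signal of 57.0 in the pooled list and at -137 bp with 33.7 in replicate 3, was outside the optimal list.

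The 3 members reached only at 1000 bp had their summits downstream, each beside a small RNA gene. In spe-15, the gene for a myosin VI motor that sorts material away from budding spermatids (WBGene00004969, chrI:1446497-1465358, plus strand), the summit at 1447105 was in an intron 608 bp downstream and 33 bp from a tRNA gene. Its signal was 109.5 in the pooled list (rank 613), 72.9 in replicate 3 (rank 743) and 35.5 in replicate 4 (rank 530). It was the only optimal summit inside the body of any of the 60 members. For msp-65 (WBGene00003458, chrIV:5316523-5316906, plus strand) the summit at 5317352 was 829 bp downstream, past the end of the gene and inside sls-2.17, an snRNA gene. It had a signal of 107.3 in the pooled list (rank 628), 72.6 in replicate 3 (rank 751) and 35.6 in replicate 4 (rank 528). For msp-57 (WBGene00003450, chrIV:5062578-5062961, plus strand) the summit at 5063380 was 802 bp downstream and 42 bp from sls-2.13, another snRNA gene. The signal was 74.2 (pooled rank 1330), with 65.4 in replicate 3 (rank 946) and 21.2 in replicate 4 (rank 1790), so only replicate 3 placed it among its strongest 1339. Genes of the sls-2 group encode SL2 spliced leader RNA. No other coding 5' end lay within 1000 bp of these 3 summits, but in each case the small RNA gene was nearer than the 5' end of the sperm gene.

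**Figure D2:**
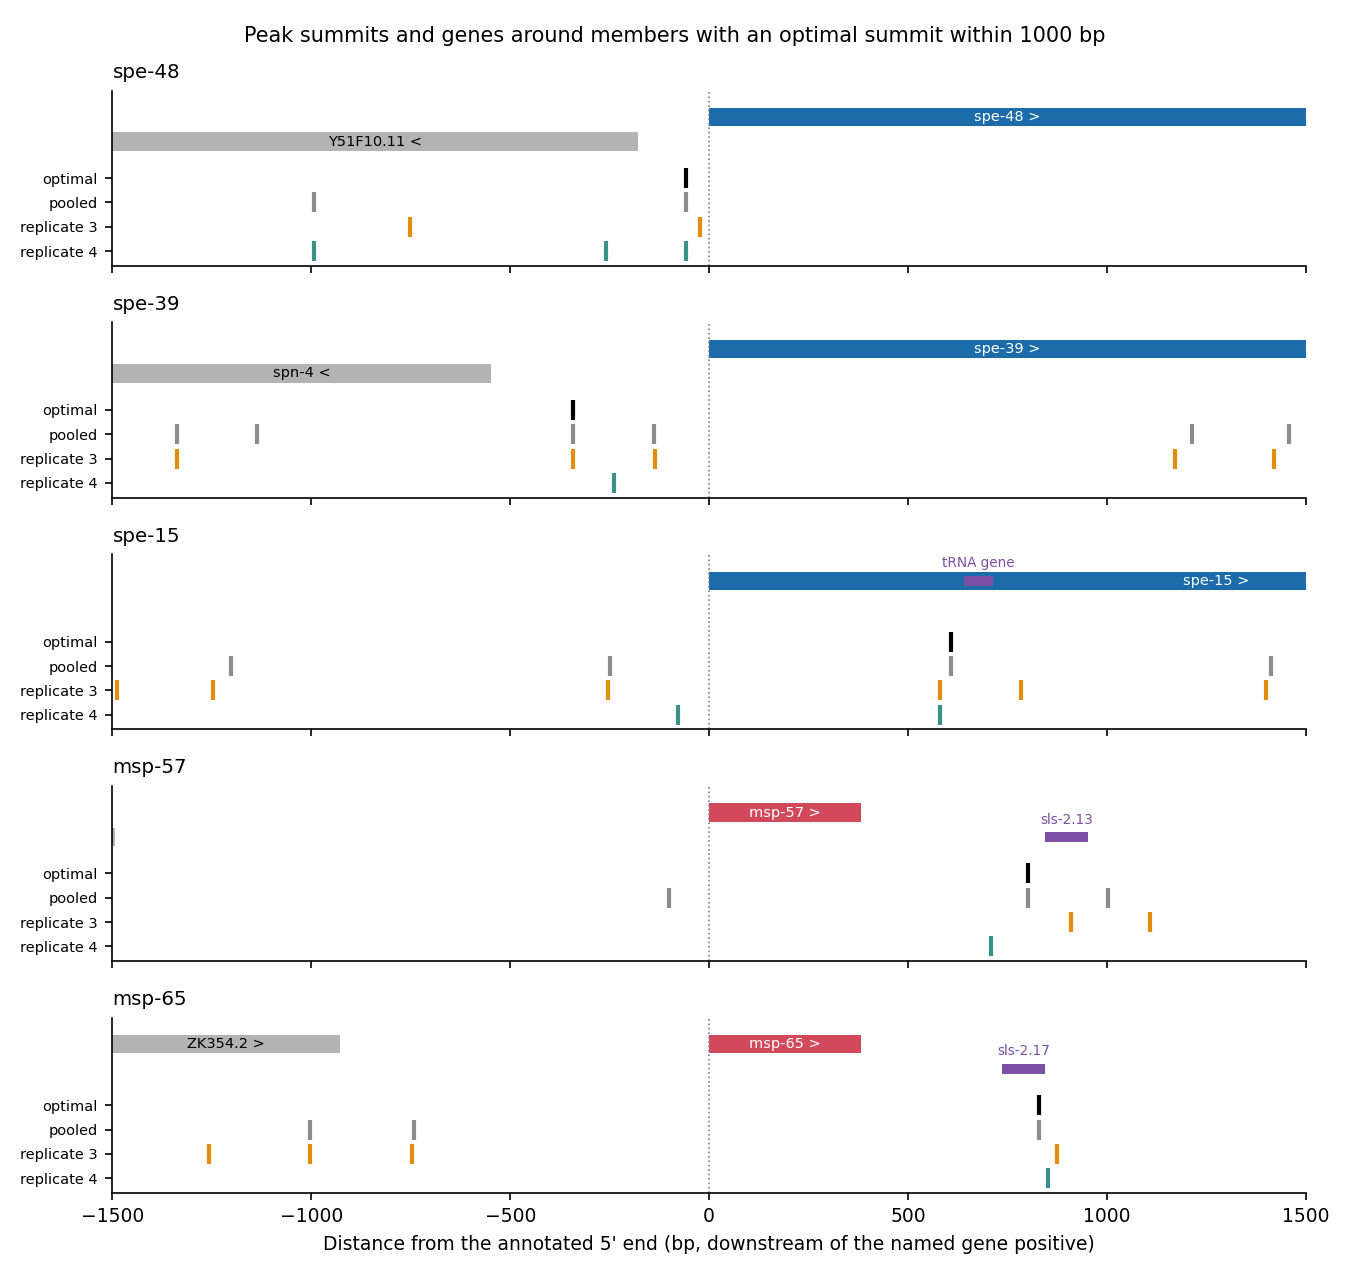
Maps of spe-48, spe-39, spe-15, msp-57 and msp-65, which have an optimal summit within 1000 bp; the x axis is distance from the annotated 5' end in bp, coloured bars are the named members, grey bars other coding genes, purple bars tRNA, snoRNA or snRNA genes, and ticks are summits of the optimal, pooled and replicate lists. The spe-48 summit lies 58 bp upstream, the spe-39 summit lies 341 bp upstream between 2 divergent genes, and the other 3 lie at 608, 802 and 829 bp downstream beside small RNA genes.

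The DNA under the summits of spe-39, msp-57 and msp-65 is shown, so that it can be set beside the short words found at OEF-1 summits in general. Each run is 101 bases centred on the optimal summit, on the strand of the sperm gene and in lower case because none of the words searched occurs in it. The positions on ce11 are chrV:6785060-6785160 (plus strand) for spe-39, chrIV:5063330-5063430 (plus) for msp-57 and chrIV:5317302-5317402 (plus) for msp-65.
spe-39: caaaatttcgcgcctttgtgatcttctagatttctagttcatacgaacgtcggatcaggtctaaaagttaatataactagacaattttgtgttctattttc
msp-57: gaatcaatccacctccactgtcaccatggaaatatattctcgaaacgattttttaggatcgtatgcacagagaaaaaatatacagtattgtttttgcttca
msp-65: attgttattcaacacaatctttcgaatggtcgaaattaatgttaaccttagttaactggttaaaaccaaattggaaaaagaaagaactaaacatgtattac
Both strands were searched for short words. The word GGCGCA, the word ACGCGC and the word GCGCCA had been found raised at summits of these same data and can overlap one another. The GATA words AGATAA and TGATAA were searched as well. In the 1318 nuclear optimal summits, GGCGCA was within 50 bp of 14.0%, ACGCGC of 10.9% and GCGCCA of 11.2%. The windows at spe-39, msp-57 and msp-65 had GC contents of 33.7%, 34.7% and 27.7%, each below the median of 44.6% over nuclear optimal summits. The windows at spe-15 and spe-48, whose letters are not shown, had 57.4% and 56.4%, above that median. Of the words searched, the spe-15 window held ACGCGC and the spe-48 window none. In the 250 bp upstream of the 5' end, GGCGCA was present at 3 spe genes, spe-48 among them, and 0 msp genes against 4.84% of all coding genes, and GCGCCA at 3 spe genes and 1 msp gene against 4.14%. ACGCGC was there at 2 spe genes and 1 msp gene, against 5.38% of all coding genes. A word's absence says only that these letters are not in the window.

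Below the optimal list, candidates were common at both families. In the pooled list 21 of 29 spe genes (72.4%, interval 52.8 to 87.3) and 17 of 31 msp genes (54.8%, interval 36.0 to 72.7) had a summit within 500 bp, against 33.6% of all coding genes. Their strength was ordinary: the strongest candidate of each gene had a median signal of 25.2 for spe and 20.9 for msp genes, against 26.3 over the 6713 coding genes with one. The median pooled rank was 9585 for spe and 13557 for msp genes, against 8763 over all coding genes with a candidate. The best rank of an msp gene within 500 bp was 3387, well past the end of the optimal list.

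The replicates did not give the msp genes alike. Within 500 bp, replicate 3 had a candidate at 23 spe and 17 msp genes, against 34.0% of all coding genes, and replicate 4 at 16 spe and 3 msp genes, against 28.9%. The msp share of replicate 4 was thus 9.68% (interval 2.04 to 25.7), below its share of all coding genes, while that of replicate 3 was above it. The 3 msp genes of replicate 4 were msp-31, msp-36 and msp-74, with signals of 10.3, 14.7 and 11.5, all at least 294 bp downstream of the 5' end. Only msp-74 had a candidate within 500 bp in all 3 lists, against 14 spe genes. The share of all coding genes with one in all 3 lists was not counted, so neither number can be called high or low. Within 200 bp, replicate 4 had 8 spe and 0 msp genes (14.0% of all coding genes), replicate 3 had 19 and 11 (17.9%) and the pooled list 16 and 9 (17.7%). The replicate 4 list was shorter, and its peaks had a median width of 420 bp against 440 bp in replicate 3; the part of list length in this difference was not tested. Among the top 1339 peaks of each replicate, which have equal length, 4 spe genes were bound in replicate 3 (against 3.81% of all coding genes) and 3 in replicate 4 (against 3.95%), and 0 msp genes in either.

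Within 1000 bp of the 5' end, candidates were close to general among msp genes. The pooled list had one at 25 spe and 30 msp genes against 45.0% of all coding genes, replicate 3 at 26 spe and 31 msp genes against 46.6%, and replicate 4 at 20 spe and 20 msp genes against 42.0%. The families differed in where the candidates lay. In the pooled list the most frequent place for spe genes was the 250 bp just upstream of the 5' end, with 13 of 29 genes. It was also the most frequent step for all coding genes, with 13.2% of them. In replicate 3 that step held 11 spe genes (13.0% of all coding genes). Beside it were 10 in the first 250 bp downstream (11.0%) and 10 from 500 to 750 bp downstream (9.95%). In replicate 4 the upstream step held 6 (10.7% of all coding genes), as many as each neighbouring step (8.76% and 7.80%). A further 7 lay from 1000 to 1250 bp downstream (7.11%). For msp genes the most frequent place was 500 to 750 bp downstream, with 15 of 31 genes in the pooled list, 16 in replicate 3 and 10 in replicate 4. All coding genes had 9.55%, 9.95% and 7.11% there. The summit nearest to the 5' end was on the downstream side at 13 of 29 spe and 26 of 31 msp genes in the pooled list, against 9792 of 19973 coding genes. In replicate 3 it was so at 14 spe and 25 msp genes, against 9973 coding genes, and in replicate 4 at 16 spe and 20 msp genes, against 9708.

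An msp gene model is short, 384 bp in 28 of 31 members, so most of these downstream summits were past the end of the gene. The band taken next contains the 500 to 750 bp step where msp summits were most frequent in these same lists. Its msp share is therefore not a separate result. Between 500 and 1000 bp downstream, a pooled summit was found at 13 of 29 spe genes (44.8%) and 22 of 31 msp genes (71.0%), against 17.1% of all coding genes and 20.1% of the 1174 coding genes of at most 500 bp. In replicate 3 the counts were 13 spe and 21 msp genes against 17.7% of all coding genes, and in replicate 4 they were 5 spe and 16 msp genes against 12.9%. From 1000 to 500 bp upstream, a pooled summit was found at 7 spe genes (24.1%) and 8 msp genes (25.8%), against 15.6% of all coding genes. The pooled msp summits in the downstream band lay a median of 270 bp past the annotated 3' end (130 to 648 bp). In genes this short, a place past the 3' end follows from the band and is no separate result. Both replicates had a summit in the downstream band at 12 msp genes. At 10 of these the 2 summits were within 200 bp of each other. The band spans only 500 bp, and how often 2 unrelated summits in it would lie that close was not counted. The share of all coding genes with a band summit in both replicates was not counted. A tRNA, snoRNA or snRNA gene lay within 250 bp of 2 of the 22 pooled summits, those of msp-57 and msp-65, and the msp gene itself was the nearest coding 5' end at 18 of 22. The median pooled rank of these candidates was 6376, and only msp-65 and msp-57 entered the optimal list.

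One further msp gene, msp-76, came near the optimal list from this band. Its pooled summit, 566 bp downstream, had a signal of 61.9 and rank 1778. Replicate 4 placed its own summit, 630 bp downstream, at 25.7 and rank 1128, inside its strongest 1339, and replicate 3 placed its summit, 549 bp downstream, at 33.9 and rank 3029. The nearest small RNA gene was 6599 bp away. Likewise msp-3 had a replicate 4 summit 551 bp downstream with a signal of 23.4, rank 1429, just past the same number of peaks.

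**Figure D3:**
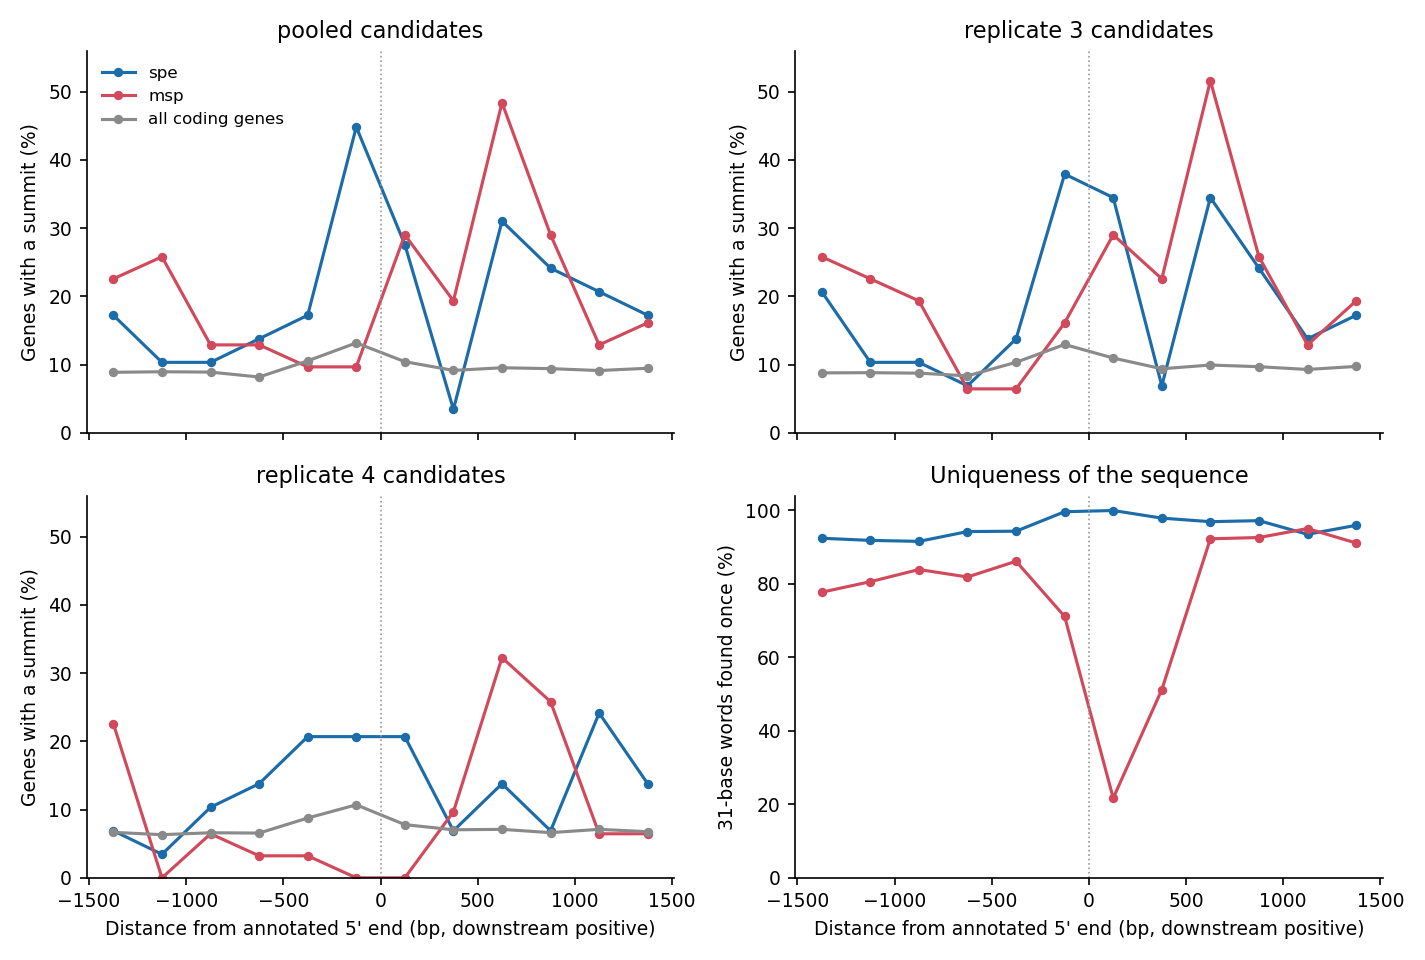
Share of genes with a summit in each 250 bp step of distance from the annotated 5' end, for spe, msp and all coding genes in the pooled, replicate 3 and replicate 4 lists, and (lower right) the mean share of 31-base words that occur once in the genome around spe and msp genes. The msp line peaks 500 to 750 bp downstream in all 3 lists and is at 0 from 250 bp upstream to 250 bp downstream in replicate 4.

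The msp genes are near copies of one another. All 31 have a single coding exon, 28 share a coding length of 381 bp, and the 378 pairs among these 28 had a median identity of 92.5% (86.1 to 99.5). No pair was identical, and the closest was msp-113 with msp-65. Of the 31-base words within 500 bp of an msp 5' end, a median of 57.0% occurred once in the genome (19.1 to 82.1), against a median of 100% for spe genes and for all coding genes. Under 80% were unique at 29 of 31 msp genes and 1 of 29 spe genes, against 7.56% of all coding genes. Around msp genes the unique share was 86.2% from 500 to 250 bp upstream, where 3 of 31 genes had a pooled summit. It was 71.1% in the 250 bp upstream, 21.7% in the first 250 bp of the gene, where 9 genes had a pooled summit, 51.2% in the next and 92.3% from 500 to 750 bp downstream, while around spe genes it was at least 91.6% in every such step. How reads that match several places were treated is not stated, and the part of repeated sequence in the msp counts was not tested. Only 2 msp genes, msp-74 and msp-64, passed 80% unique, too few to compare.

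**Figure D4:**
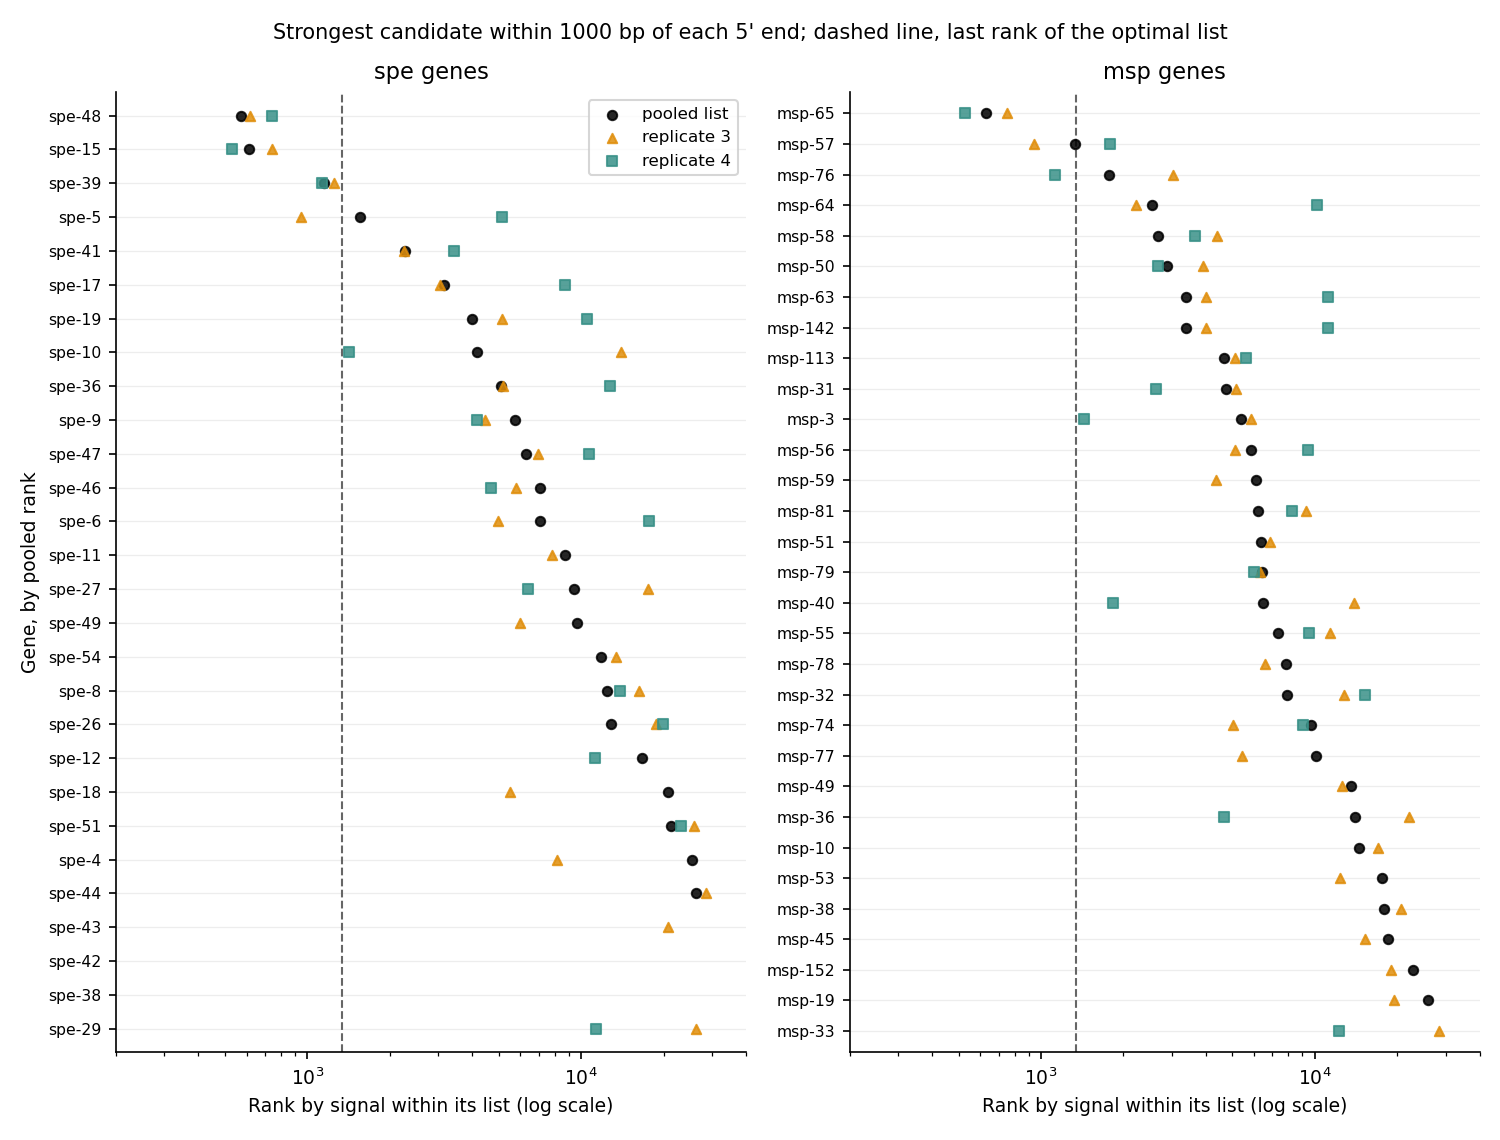
Rank of the strongest candidate within 1000 bp of each gene shown in the pooled, replicate 3 and replicate 4 lists (log axis, stronger to the left), with spe genes left and msp genes right, each sorted by pooled rank; a missing mark means no candidate and the dashed line is rank 1339. Of the genes shown, spe-48, spe-15, spe-39, msp-65 and msp-57 lie left of the line in the pooled list, and the rest run from rank 1557 on.

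Weaker candidates were found at spe genes of each step of sperm development. Of the 8 genes that act at fertilization, 5 had a pooled candidate within 500 bp, against 33.6% of all coding genes. One of them was spe-41, a sperm calcium channel also known as TRP-3, with a summit in its own intron 161 bp downstream and signals of 53.3 in the pooled list (rank 2265), 40.0 in replicate 3 (rank 2247) and 16.4 in replicate 4 (rank 3434). The secreted protein gene spe-36 had 34.2 (rank 5093) at a summit 146 bp upstream that falls in an intron of its neighbour F40F11.3, with 25.9 in replicate 3 (rank 5177) and no replicate 4 summit within 500 bp. The tetraspan gene spe-38 and spe-42, a gene for a membrane protein with a DC-STAMP domain, had no candidate within 1000 bp in any of the 3 lists. The sperm surface gene spe-9 had only a replicate 3 candidate within 500 bp, with a signal of 9.26 at rank 29600 and another gene's 5' end nearer.

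Of the 9 genes of sperm activation, the step at which round spermatids grow a pseudopod, 0 were bound, against 3.87% of all coding genes, and 6 had pooled candidates, against 33.6%, at ranks from 6307 to 14676. The best was spe-47, which encodes a protein with an MSP domain, at 7 bp upstream, with a signal of 30.8 in the pooled list and 22.3 in replicate 3 (rank 6953). Replicate 4 had a summit 252 bp upstream with 8.69 (rank 16975). The kinase genes spe-8 and spe-6 had pooled signals of 22.0 and 21.9, and spe-12, spe-29 and spe-43 had no pooled candidate within 500 bp.

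Of the 8 genes of spermatid formation, spe-39 was bound, against 3.87% of all coding genes, and 6 had pooled candidates, against 33.6%. The nearest miss of the optimal list was spe-5, a gene for a subunit of the vacuolar proton pump, with a summit 74 bp downstream in its untranslated exon. Its signal was 67.6 in the pooled list (rank 1557), 65.4 in replicate 3 (rank 947) and 14.2 in replicate 4 (rank 5147), so it stood among the strongest 1339 of replicate 3 and well outside those of replicate 4. The palmitoyltransferase gene spe-10 ranked higher in replicate 4, with 23.4 at rank 1423, just outside the strongest 1339, than in replicate 3, with 15.6 at rank 13979. Its pooled signal was 37.9 at rank 4154, 480 bp downstream in its coding sequence. Within 500 bp, spe-15 had a weaker pooled candidate of 35.3 (rank 4779), 250 bp upstream. The presenilin gene spe-4 had 12.8 at rank 27831.

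The genes that act above or after these steps were weak as well. The paternal-effect gene spe-11, whose product works in the embryo, had a pooled signal of 15.2 at rank 22334. The transcription factor gene spe-44 had 13.4 (rank 26338) at 136 bp downstream and 9.55 in replicate 3 (rank 28560), with no replicate 4 candidate within 500 bp. For elt-1 there was no candidate within 500 bp in any of the 3 lists.

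Among msp genes, the highest pooled candidates within 500 bp were at msp-142, msp-3, msp-59, msp-78 and msp-63. The signals were 42.1 for msp-142 (rank 3387), 33.4 for msp-3 (rank 5355), 31.4 for msp-59 (rank 6078), 27.8 for msp-78 (rank 7841) and 25.5 for msp-63 (rank 9379). Only msp-142 had a summit at the same place in both replicates, 29.4 in replicate 3 and 10.6 in replicate 4. In replicate 3, msp-59 had 21.0, msp-78 22.9 and msp-63 18.5 within 50 bp of the pooled summit, and replicate 4 had none there. At msp-59, msp-78 and msp-63 the summit lay in the coding sequence, at 32, 292 and 232 bp downstream of the 5' end, inside the stretch of low uniqueness. At 11 msp genes, msp-32, msp-64, msp-53, msp-19, msp-51, msp-113, msp-58, msp-65, msp-76, msp-79 and msp-77, no list had a candidate within 500 bp. How many of all coding genes lack one in every list was not counted.

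By distance alone, most candidates were nearest to the member's own 5' end, which does not assign a peak to that gene. The strongest pooled candidate within 500 bp was nearest to the member's own 5' end at 20 of 21 spe genes and 16 of 17 msp genes, the exceptions being spe-39, where spn-4 was nearer, and msp-40, where C33F10.8 was. It lay upstream at 12 of the 21 spe genes and at 5 of the 17 msp genes. Of 6 members with an optimal summit within 1000 bp, spe-39 had another coding gene nearer, and spe-15, msp-57 and msp-65 had a small RNA gene nearer.

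By chromosome, the spe genes were spread over I (12), II (1), III (2), IV (9) and V (5), and the msp genes lay on II (13) and IV (18). None was on X, where 0.33% of all coding genes were bound, against 6.53% on I, 3.91% on II, 6.06% on III, 4.60% on IV and 2.58% on V. Of the spe genes, 1 of 12 on I and 1 of 5 on V were bound.

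The msp genes are clustered, and optimal peaks occurred inside the clusters without falling on msp 5' ends. With members joined across gaps of at most 100 kb, 29 msp genes and spe-29 formed 6 clusters of 3 or more, from 9.43 to 245 kb long, while msp-36 and msp-38 stood apart. The clusters held 9 optimal summits in all, 4 in the first cluster of chromosome II and 3 in the last of chromosome IV. Per 100 kb these were 2.71 and 1.22 summits, against 1.43 over chromosome II and 1.64 over chromosome IV. The other clusters had 0 per 100 kb on chromosome II, and 10.6 (1 summit in 9.43 kb) and 1.78 on chromosome IV. Of the 135 other coding genes in the clusters, 6 (4.44%) were bound, against 0 of the 30 members and 3.87% of all coding genes. These were dnj-9, F26G1.1, R05F9.9 and R05F9.11 beside msp-3 to msp-152, and T13F2.6 and mtr-4, the gene of an RNA helicase of the nuclear exosome, between msp-76 and spe-29. The median distance from the 5' end to the nearest optimal summit was 12200 bp for spe genes and 11037 bp for msp genes, against 33545 bp for all coding genes and 28102 bp for those of chromosomes II and IV. The msp genes of a cluster share their surroundings, so these distances are not independent. Some pairs are head to head, with msp-142 and msp-63 only 478 bp apart, and the pooled summit of rank 3387 lies within 1000 bp of both 5' ends.

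**Figure D5:**
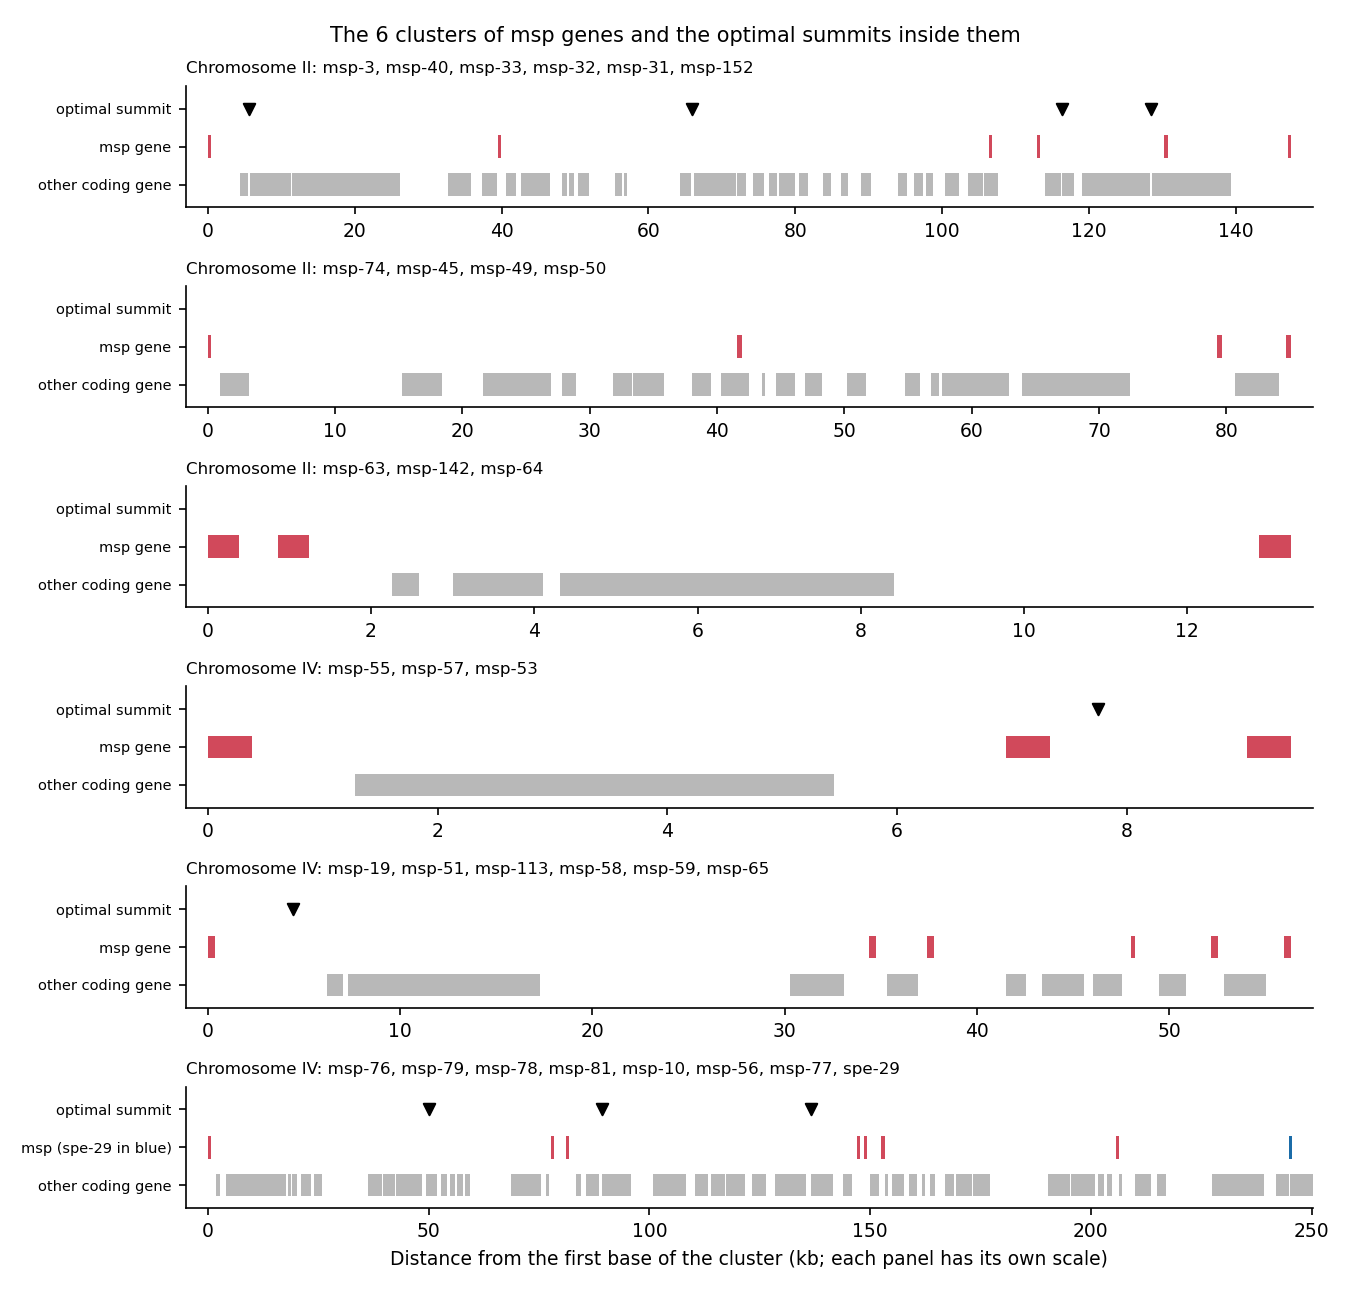
The 6 clusters of msp genes, each on its own scale in kb from the first base of the cluster, with optimal summits (triangles), msp genes (red, and spe-29 in blue) and other coding genes (grey). The clusters hold 9 optimal summits, and 0 of the 30 members has one within 500 bp of its 5' end.

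Many msp genes share GATA words upstream of the 5' end. One of the GATA words AGATAA and TGATAA stood in the 250 bp upstream of 10 of 29 spe genes (34.5%, interval 17.9 to 54.3) and 26 of 31 msp genes (83.9%, interval 66.3 to 94.5), against 40.2% of all coding genes. The msp upstream stretches resemble one another, and the 100 bases upstream of msp-19 and msp-51 are identical. The 31 msp genes are thus not independent here, which the interval does not allow for. AGATAA alone was there at 3 spe and 19 msp genes, against 18.7% of all coding genes. TGATAA was added after the sequences had been seen, and it stood at 7 spe and 9 msp genes, against 26.8% of all coding genes. In the 26 msp genes a single such word was placed per gene. That word began a median of 81 bp upstream, and within 100 bp in 25 of the genes. It was not always the nearest, as msp-40 had a reverse complement of TGATAA closer to its 5' end. The 100 bases just upstream of 5 msp genes with the word, of msp-142 without it, and of 2 spe genes are shown to make this visible, on the strand of the gene and ending at its 5' end, with the GATA word (or its reverse complement) in capitals. In spe-41 the word AGATAA lies in the 250 bp upstream but outside the 100 bases shown. They are at chrII:4786282-4786381 (minus strand) for msp-3, chrII:4916563-4916662 (minus) for msp-31, chrIV:5062478-5062577 (plus) for msp-57, chrIV:5316423-5316522 (plus) for msp-65, chrIV:9837549-9837648 (plus) for msp-10, chrII:5797827-5797926 (plus) for msp-142, chrIV:12454216-12454315 (minus) for spe-44 and chrIII:3444211-3444310 (minus) for spe-41.
msp-3: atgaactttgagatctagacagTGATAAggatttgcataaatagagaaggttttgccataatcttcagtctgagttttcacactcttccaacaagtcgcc
msp-31: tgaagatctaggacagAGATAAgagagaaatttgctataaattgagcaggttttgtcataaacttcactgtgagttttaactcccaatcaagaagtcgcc
msp-57: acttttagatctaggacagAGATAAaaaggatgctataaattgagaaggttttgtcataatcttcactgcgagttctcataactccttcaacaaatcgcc
msp-65: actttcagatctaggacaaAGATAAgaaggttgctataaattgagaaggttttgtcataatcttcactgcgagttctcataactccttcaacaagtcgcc
msp-10: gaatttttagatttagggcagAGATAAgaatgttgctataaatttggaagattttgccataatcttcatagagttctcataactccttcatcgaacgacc
msp-142: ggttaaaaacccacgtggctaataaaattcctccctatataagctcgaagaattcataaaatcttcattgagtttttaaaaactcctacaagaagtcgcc
spe-44: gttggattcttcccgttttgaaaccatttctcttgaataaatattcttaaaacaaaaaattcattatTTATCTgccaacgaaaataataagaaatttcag
spe-41: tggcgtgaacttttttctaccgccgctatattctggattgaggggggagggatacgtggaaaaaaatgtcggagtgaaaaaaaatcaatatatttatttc
The 5 msp genes without either word were msp-142, msp-63, msp-38, msp-32 and msp-58. Of these, msp-32 and msp-58 have short gene models with coding lengths of 357 and 231 bp. The other short model is msp-74 with 231 bp. Its upstream 100 bases matched the coding sequence of msp-45 at 81 of 100 bases, and those of msp-58 matched msp-113 at 100 of 100. A word match is a description of these letters and not a measured site of any GATA factor.

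Further lists of genes of sperm and of sperm fate, chosen with results of these data known, were counted in the same way. Another 38 genes were listed for a link to sperm, elt-1 among them. Of these, 0 were bound within 500 bp (interval 0 to 9.25), against 3.87% of all coding genes. Taken as at most 3 counts, that 0 allows a share of up to 7.89%. A pooled candidate was found at 23 of the 38 (60.5%), against 33.6%. A GATA word stood upstream of 26 of the 38, against 40.2% of all coding genes. Of 33 genes that set sperm or oocyte fate in the germline, 3 (9.09%) were bound, with an interval of 1.92 to 24.3 that includes the 3.87% of all coding genes, and 29 had a pooled candidate (87.9%), against 33.6% of all coding genes. The bound fate genes were mog-4, atx-2 and rpn-10, all known from germline sex determination. The helicase gene mog-4 had signals of 171.7 in the pooled list (rank 203), 111.3 in replicate 3 (rank 285) and 64.6 in replicate 4 (rank 96), at a summit 212 bp upstream. The ataxin-2 gene atx-2 had 128.9 (rank 425), 93.7 in replicate 3 (rank 453) and 36.3 in replicate 4 (rank 505), 47 bp upstream. The proteasome subunit gene rpn-10 had 81.3 (rank 1110) and 63.6 in replicate 3 (rank 996), 50 bp downstream, but 15.5 at rank 4070 in replicate 4. Each of the 3 was the nearest coding 5' end to its summit.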

How the data were processed

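The deposited values are peak lists on ce11, and per the deposited README texts the authors made candidate lists from each replicate and from both pooled with 1 shared control, and an optimal list by the irreproducible discovery rate. Each peak has a deposited signal, whose scale is not stated and which was used only to describe and rank peaks within a list, and a deposited −log10 q-value, which was not used. Caller, aligner, versions, read length and depth: not given in the sources used here. The labels call the samples biological replicates. Summits (peak start plus offset, written 1-based) were set against coding 5' ends of Ensembl release 115 with Python 3.11.15, pandas 2.3.3, NumPy 2.4.6 and SciPy 1.17.1, and figures were drawn with matplotlib 3.10.9. The assignment of summits to genes was tested on simulated data. Shares carry exact 95% binomial intervals, and the floor for a count of 0 is 3 counts. Members and gene lists were chosen with earlier results of these data known; 6 of 44 other sperm gene names and 1 of 34 fate gene names matched no symbol. Genes were named when an optimal summit lay within 1000 bp (500 bp for the further lists), for the 10 next pooled ranks, for peaks strong in 1 replicate only, for nearest neighbours, and for spe-44 and elt-1; other names were chosen after their values were seen. Alternatives covered distance, peak overlap, signal, list, transcript ends, nearest gene and small RNA genes. Counts cover all members, but 1 spe gene is not reported here by name or shown in the plots of sites and ranks.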

Additional observations from a re-analysis of the deposited data

How the results depend on the processing

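Each of the 5 counts within 500 bp in the optimal list (3 spe, 0 msp, 3 spe and msp together, 0 other sperm and 3 fate genes) was recomputed under 12 other settings. Within 500 bp in the optimal list, 3.87% of all coding genes were bound. Within 1000 bp the msp count was 2 and that of both families 6, against 5.28% of all coding genes. The candidate lists moved every count. They held a summit within 500 bp at 33.6% of all coding genes pooled, 34.0% in replicate 3 and 28.9% in replicate 4. The pooled list gave 21 spe, 17 msp, 38 spe and msp, 23 other sperm and 29 fate genes, the replicate 3 list 23, 17, 40, 25 and 23 in the same order, and the replicate 4 list 16, 3, 19, 16 and 25. With 1 replicate left out and the 1339 strongest peaks of the other used, the counts ranged from 3 to 4 for spe genes, from 0 to 0 for msp and for other sperm genes, from 3 to 4 for both families and from 4 to 5 for fate genes, the 5 without replicate 3. Of all coding genes, 3.81% were bound without replicate 4 and 3.95% without replicate 3. Within 200 bp, among only the stronger peaks (50% of the nuclear ones) and with only the nearest 5' end counted, the spe count was 2. The shares of all coding genes under these settings were 1.89%, 2.03% and 3.08%, in that order. The causes were not tested. No paired analysis was possible because there is 1 group. Unknown read depth, no untagged sample, 2 replicates and repeated msp sequence limit what a missing peak can show.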

Other observations

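Among the fate genes, some stood among the strongest 1339 peaks of 1 replicate only, and they were named after their values were seen. In replicate 4 these were gld-1, an RNA-binding regulator of sperm and oocyte fate, with a signal of 28.5 (rank 886), sel-10, an F-box gene, with 30.3 (rank 767), and daz-1, a DAZ-family RNA-binding gene, with 25.3 (rank 1177). In replicate 3 gld-1 had 36.5 (rank 2635), sel-10 had 33.0 (rank 3193) and daz-1 had no candidate within 500 bp. The gene gld-3, of a Bicaudal-C family RNA-binding protein, had 64.5 in replicate 3 (rank 970) and 14.0 in replicate 4 (rank 5406).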
